A study of Mus musculus with 8 samples.

Results

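Dectin-1 signalling was followed through 8 genes, of 22350 protein-coding genes annotated on mm9: Clec7a, Syk, Vav1, Plcg2, Prkcd, Card9, Bcl10 and Malt1. They were taken by name, as the receptor and the proteins that carry its signal. For each gene the NFATc2 summits within 100 kb of any annotated transcription start site (TSS) were collected, together with the H3K4me3 peaks that overlapped the gene or lay within 1 kb of a TSS. All samples were D1 cells, a long-term line of splenic dendritic cells (DCs) of C57BL/6 origin. For NFATc2 (named NFAT1 in the sample labels), D1 cells that stably carried a lentiviral NFATc2 with a C-terminal V5 tag, beside their own NFATc2, were exposed to 10 μg/ml curdlan for 30 min, and the tag was immunoprecipitated. The transduced cells had been sorted for low expression of the GFP reporter. H3K4me3 was measured in D1 cells left non-treated (NT), given 10 μg/ml curdlan for 2 h, or given curdlan together with FK506 for 2 h. The FK506 dose of these libraries is not given in the labels. Conditions were not replicated (1 ChIP and 1 input library each), which leaves no test between them, and every interval below covers counting error only.

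Dectin-1, the product of Clec7a, is a C-type lectin on myeloid cells that binds β-glucans such as curdlan. Its tail recruits the tyrosine kinase Syk, which signals along a pair of branches. In one, Vav1, an exchange factor for Rac GTPases, and phospholipase Cγ2 (Plcg2) lead to calcium release, and calcineurin, the phosphatase that FK506 inhibits, then sends NFAT proteins to the nucleus. In the other, protein kinase Cδ (Prkcd) acts on the adaptor Card9, which assembles with Bcl10 and the paracaspase Malt1 to activate NF-κB. H3K4me3 is a histone mark found around the start sites of active and poised genes.

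The header totals were 14377535 ChIP tags for NFATc2 and 16662316 to 21289349 for H3K4me3, with 9438 NFATc2 peaks and 14872 to 15799 H3K4me3 peaks. Peaks held 5.58% of the NFATc2 tags. For H3K4me3 this share was 57.9% in NT cells, 52.8% after curdlan and 51.3% when FK506 was added. The cells carried H3K4me3 near the start sites of 6 of the 7 dendritic and myeloid marker genes found in the annotation in NT, against 1 of 4 T-cell, 0 of 3 B-cell, 0 of 1 NK-cell and 0 of 2 fibroblast markers. With peaks anywhere over the gene also counted, which 51.5% of all protein-coding genes had in NT, 7 of 7 dendritic, 2 of 4 T-cell and 2 of 3 B-cell markers carried one, among them Cd79a with 71.0 and Pax5 with 12.1 tags for every 1000000 ChIP tags. The part of other cells in the results was not tested.

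NFATc2 summits were counted within 100, 10 and 1 kb of the start sites of the 8 genes. Within 100 kb of a TSS, 6 of 8 genes had a summit, beside 55.4% of all protein-coding genes. Within 10 kb this held for 3 of 8 genes (Syk, Prkcd and Vav1), beside 16.3% of all genes, and within 1 kb for 1 of 8 (Prkcd), beside 5.29%. The exact 95% binomial interval ran from 34.9% to 96.8% for the share within 100 kb and from 8.52% to 75.5% for that within 10 kb. Each interval included the share of all genes. In all, 22 summits lay within 100 kb, of which a listed gene had the nearest TSS for 4. The mm9 sequence around these 4 summits is shown because they are the sites that the distance assigns to the pathway itself. Each run covers 100 bp to either side of the summit on the plus strand. Capitals mark GGAAAA, the core that NFAT proteins recognise, or TGANTCA, the AP-1 element, each searched on both strands. Occurrences of the 2 motifs cannot overlap.
Syk, 7.43 kb upstream of the TSS, chr13:52671008-52671208: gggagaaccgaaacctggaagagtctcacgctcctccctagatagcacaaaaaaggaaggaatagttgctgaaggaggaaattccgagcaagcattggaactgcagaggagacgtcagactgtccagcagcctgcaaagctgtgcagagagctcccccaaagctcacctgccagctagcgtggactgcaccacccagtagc
Prkcd, intronic, chr14:31424243-31424443: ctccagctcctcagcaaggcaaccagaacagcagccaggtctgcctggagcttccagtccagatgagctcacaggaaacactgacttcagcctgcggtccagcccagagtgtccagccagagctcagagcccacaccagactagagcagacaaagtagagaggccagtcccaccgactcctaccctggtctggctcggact
Prkcd, 8.47 kb upstream of the TSS, chr14:31447765-31447965: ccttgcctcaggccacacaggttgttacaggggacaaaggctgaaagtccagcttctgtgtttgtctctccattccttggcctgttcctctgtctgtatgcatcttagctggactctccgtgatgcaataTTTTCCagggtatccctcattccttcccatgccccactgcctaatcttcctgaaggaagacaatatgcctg
Vav1, intronic, chr17:57424508-57424708: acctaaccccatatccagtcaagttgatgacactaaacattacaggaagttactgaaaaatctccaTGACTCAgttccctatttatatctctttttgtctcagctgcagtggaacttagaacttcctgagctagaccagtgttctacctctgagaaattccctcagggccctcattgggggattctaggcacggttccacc

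Of these 4 windows, the one upstream of Prkcd held GGAAAA and the one in Vav1 held TGANTCA, whereas those at Syk and inside Prkcd held neither. Over all 22 summits near the 8 genes, 10 windows (45.5%) held GGAAAA, beside 45.6% of the windows at all 9438 summits. TGANTCA was present in 4 of 22 windows (18.2%), beside 21.8% of all. Both shares were close to those of all summits.

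Clec7a (ENSMUSG00000079293, chr6:129411611-129422790, minus strand) had 5 summits within 100 kb, more than 93.2% of protein-coding genes. The nearest lay 38.3 kb downstream of its TSS in an intron of Clec1a, a neighbouring lectin gene, with 146 tags and a fold enrichment of 22.0 over the input. Another 2, with 62 and 47 tags, lay 65.3 and 66.5 kb downstream in exons of Clec1b, a lectin gene of the same cluster, and the last 2 lay 53.4 and 72.4 kb upstream with 44 and 135 tags. Of the 5 summits near the receptor gene, 3 therefore lay in lectin genes, 2 were intergenic, and none was within 10 kb. Clec9a, another lectin gene, had the nearest TSS for these 3, at 1436 to 14960 bp. Clec7a had the nearest TSS for 0 of the 5.

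Syk (annotated as Sykb, ENSMUSG00000021457, chr13:52678542-52744161, plus strand) had 1 summit, 7.43 kb upstream, with 60 tags, 8.01-fold enrichment over input and a MACS p of 5.2e-08. This is weaker than 50.4% of NFATc2 peaks, which reached a p of 1e-10 or less. Vav1 (ENSMUSG00000034116, chr17:57418523-57468659, plus strand) had 7, more than 97.8% of protein-coding genes. One of them, with 147 tags, lay 6.09 kb inside the gene from its most upstream TSS. The strongest of the 22, with 281 tags and a p of 1.3e-81, lay 17.9 kb past the end of Vav1, where Emr1 had the nearest TSS, and 2 more with 104 and 140 tags lay 9.42 and 11.3 kb past it. The other 3, with 227, 67 and 73 tags, lay 84.8 to 96.1 kb upstream, and the one with 73 tags was 152 bp from a TSS of Tnfsf14, which encodes a TNF-family ligand. Plcg2 (ENSMUSG00000034330, chr8:120022191-120159040, plus strand) had none, its nearest summit being 103.0 kb away.

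Prkcd (ENSMUSG00000021948, chr14:31408542-31439396, minus strand) had 4 summits. The intronic one, with 39 tags and a p of 2.3e-11, was 845 bp upstream of an internal TSS and 15.1 kb downstream of the most upstream TSS, so it was not at the main promoter. The second, with 46 tags and a p of 4.0e-11, was 8.47 kb upstream of the gene. The last 2, with 123 and 76 tags, lay 15.9 kb past the end of the gene and 67.7 kb upstream.

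Among the genes of the Card9, Bcl10 and Malt1 complex, none had a summit within 10 kb. Card9 (ENSMUSG00000026928, chr2:26207696-26216438, minus strand) had 1, with 38 tags, 39.1 kb past its end and 2.42 kb from a TSS of Gpsm1. Bcl10 (ENSMUSG00000028191, chr3:145587322-145597247, plus strand) had none within 100 kb, the nearest being 123.7 kb away. Malt1 had 4 in a row 32.3 to 49.0 kb upstream, at and beside Alpk2, which had the nearest TSS for all of them. From the far to the near one they held 200, 183, 125 and 42 tags. The first overlapped an H3K4me3 peak in all 3 lists.

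**Figure D1:**
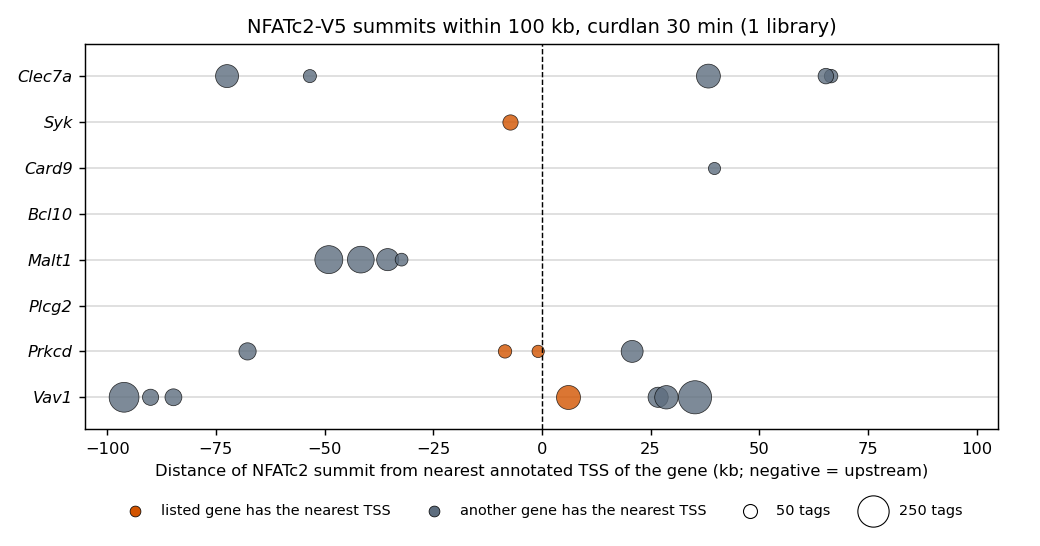
NFATc2-V5 summits within 100 kb of each gene (rows), placed by distance in kb from the nearest annotated TSS of that gene, with circle area in proportion to the tag count and orange where the gene itself has the nearest TSS. The 4 orange circles at Syk, Prkcd and Vav1 lie within 10 kb, while Bcl10 and Plcg2 have no circle.

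The 22 summits held a median of 90 tags (38 to 281), beside a median of 63 over all 9438. Of the 22, 15 (68.2%, exact 95% interval 45.1% to 86.1%) reached a MACS p of 1e-10 or less, beside 50.4% of all. By position, 15 were intergenic, 5 intronic and 2 exonic, and 13 lay upstream of the TSS. The peaks of 2, 4 and 3 of the 22 overlapped an H3K4me3 peak of NT, curdlan and curdlan with FK506 (9.09%, 18.2% and 13.6%), beside 25.4%, 24.9% and 24.1% of all NFATc2 peaks. The exact 95% intervals were 1.12% to 29.2%, 5.19% to 40.3% and 2.91% to 34.9%. Each included the share of all NFATc2 peaks. Those with an overlap in curdlan but not in NT lay 84.8 and 90.0 kb upstream of Vav1, where Tnfsf14 had the nearest TSS. Where the nearest TSS belongs to another gene, the distance alone does not say which gene a summit serves.

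All 8 genes carried H3K4me3 over their most upstream TSS in every condition. Its amount is given as RPM, the tags in the peaks of a gene for every 1000000 ChIP tags in the header total. A peak by the rule was present at 8 of 8 genes in each list, beside 51.5% of protein-coding genes in NT, 51.2% after curdlan and 51.1% when FK506 was added. The summit of the mark lay downstream of the TSS at 8 of 8 genes in each list, beside 76.1% to 77.5% of all genes with a peak over that TSS. The median offset at the 8 genes was 666 bp in NT, 714 bp after curdlan and 570 bp when FK506 was added, beside 276, 293 and 281 bp over all genes. The 250 bases before the most upstream TSS differed widely in CpG content, as the promoters with the mark at the receptor gene Clec7a and at the adaptor gene Bcl10 show. They are given here on the strand of the gene with CG in capitals.
Clec7a promoter, chr6:129422791-129423040, minus strand: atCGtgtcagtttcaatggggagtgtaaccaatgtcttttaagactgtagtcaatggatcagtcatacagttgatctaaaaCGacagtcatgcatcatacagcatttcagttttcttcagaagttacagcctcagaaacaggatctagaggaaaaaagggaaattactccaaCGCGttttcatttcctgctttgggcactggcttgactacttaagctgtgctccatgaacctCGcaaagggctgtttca
Bcl10 promoter, chr3:145587072-145587321, plus strand: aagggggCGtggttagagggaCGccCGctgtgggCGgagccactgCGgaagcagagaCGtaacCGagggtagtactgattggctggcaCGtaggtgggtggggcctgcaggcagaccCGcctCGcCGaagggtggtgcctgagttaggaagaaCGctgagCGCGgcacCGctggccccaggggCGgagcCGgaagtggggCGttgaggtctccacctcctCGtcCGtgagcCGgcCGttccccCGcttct

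The Clec7a promoter held 5 CG and 42.0% G and C, and that of Bcl10 held 23 CG and 68.4%. Over all 22350 protein-coding promoters of this length the medians were 8 CG and 54.0%. Syk, Prkcd, Plcg2 and Malt1 held 17 to 21, and Card9 and Vav1 held 3 and 7. Only Clec7a of the 8 promoters held GGAAAA in this window, beside 20.7% of all promoters.

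**Figure D2:**
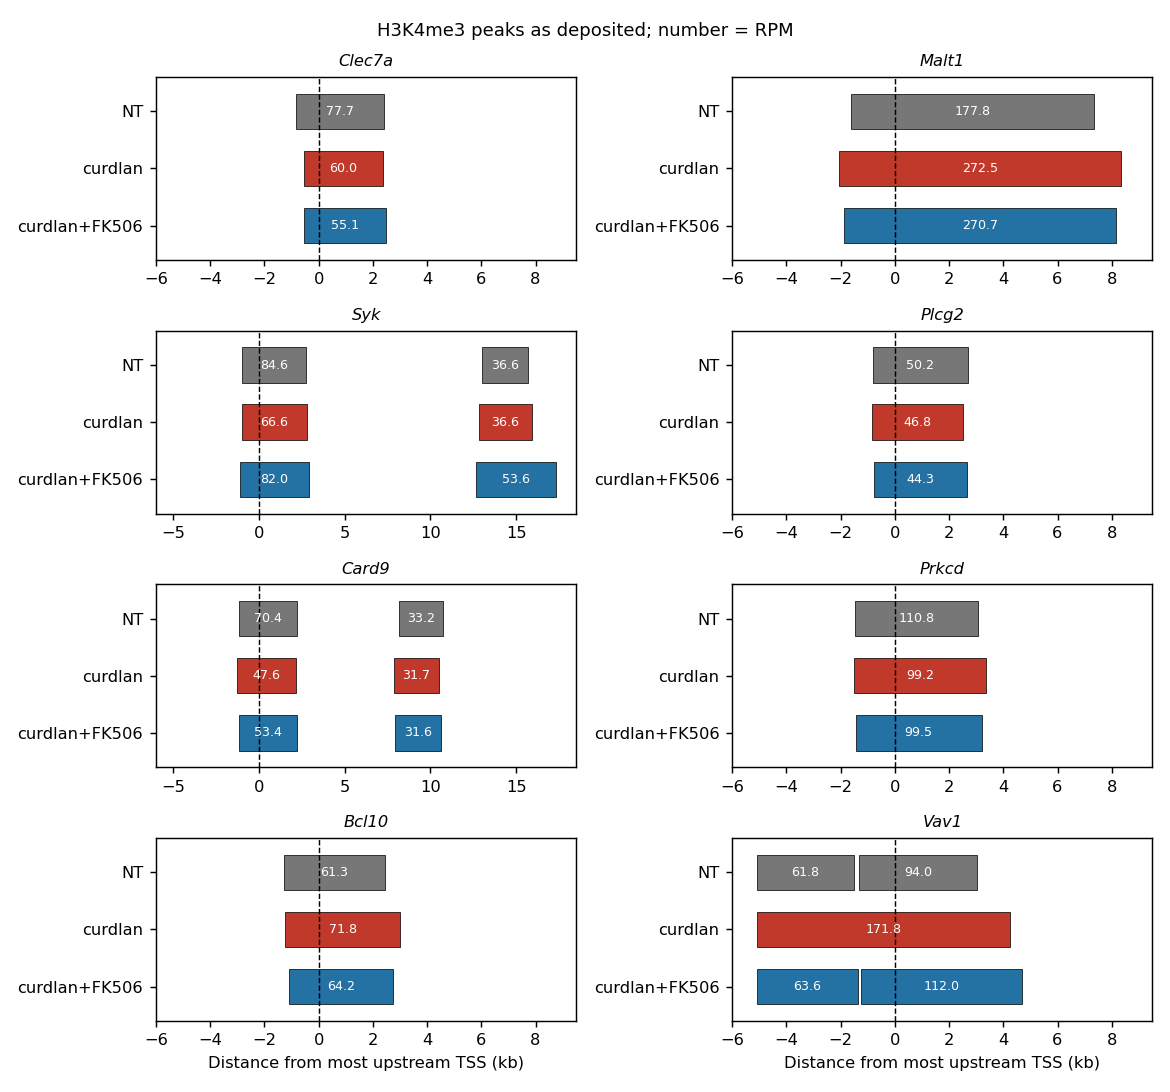
H3K4me3 peaks as the authors called them in NT (grey), curdlan (red) and curdlan with FK506 (blue), by distance in kb from the most upstream TSS of each gene (dashed line), with the RPM of each peak printed on it. Syk and Card9 have a second peak inside or past the gene, and at Vav1 the pair of adjacent peaks in NT and in curdlan with FK506 is a single peak with curdlan.

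Within a gene, levels of the mark were compared as RPM, and between genes as RPM per kb of peak. Per kb, the NT levels ran from 14.2 at Plcg2, at the median of all genes with a peak (14.1), over 16.4 at Bcl10, 17.6 at Card9, 18.9 at Syk, 19.9 at Malt1 and 21.7 at Vav1 to 23.9 at Clec7a and 24.4 at Prkcd, above 95.7% and 96.4% of genes. Clec7a and Prkcd stood at 20.8 and 20.3 with curdlan, and at 18.3 and 21.5 with curdlan and FK506. Malt1 was above both in these conditions, at 26.2 and 26.9. With curdlan and FK506 Vav1 (18.9) was also above Clec7a. Peak length did not follow the order of the NT levels. In NT the mark covered 3.26 kb at Clec7a and 8.93 kb at Malt1, which was longer than at 96.4% of genes with a peak (median 3.23 kb).

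**Figure D3:**
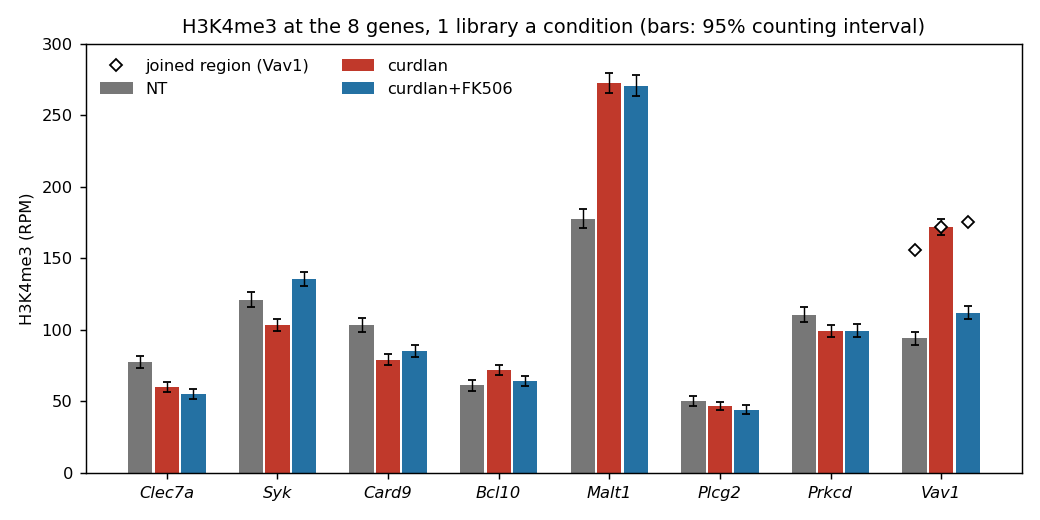
H3K4me3 RPM at the 8 genes in NT, curdlan and curdlan with FK506, summed over the peaks of each gene, with bars for the 95% Poisson counting interval of 1 library each. Malt1 stands at 177.8, 272.5 and 270.7, and the diamonds show Vav1 with overlapping peaks joined, at 155.8, 171.8 and 175.6.

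The comparison of curdlan with NT asks whether the mark differed at the pathway genes after dectin-1 was engaged. Over 11298 protein-coding genes with a peak in both lists the median ratio was 0.912 (log2 −0.13), and the log2 ratios below are centred on it. Past 1.5-fold, 2 of 8 genes were higher, Malt1 and Vav1, beside 3.71% of all genes, and 0 of 8 were lower, beside 1.8%. The call at Vav1 depends on where the list ends one peak and begins the next, as its values show below. The median centred log2 ratio over the 8 genes was 0.00, with 4 above and 4 below the median of all genes.

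Malt1 (ENSMUSG00000032688, chromosome 18, 65590617 to 65638477, plus strand), the paracaspase, held 177.8 RPM in NT (95% Poisson interval 171.4 to 184.3), 272.5 with curdlan (265.5 to 279.6) and 270.7 with curdlan and FK506 (263.4 to 278.1). The NT interval lay below the others, and those of curdlan with and without FK506 overlapped. The centred log2 ratio of curdlan over NT was 0.75 (0.69 to 0.81), a 1.68-fold difference that was above 97.6% of genes, and with FK506 added the ratio over NT was 0.79 (0.72 to 0.85). Its peak, the longest at a listed gene, reached from 1.60 kb upstream to 7.33 kb downstream of the TSS in NT, from 2.06 to 8.35 kb with curdlan and from 1.88 to 8.17 kb with curdlan and FK506. Per kb of peak the level was 19.9, 26.2 and 26.9 RPM, and the centred log2 ratio of 0.57 fell just short of the 1.5-fold limit. The authors' fold enrichment over input gave 58.9, 82.9 and 60.6, but since this measure was 1.66-fold higher with curdlan at the median gene, the centred ratio of curdlan over NT turned negative (−0.24).

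Vav1, the Rac exchange factor, had 94.0 RPM in NT (89.4 to 98.8), 171.8 with curdlan (166.3 to 177.5) and 112.0 with curdlan and FK506 (107.4 to 116.8), with lengths of 4.34, 9.32 and 5.92 kb. By these values it was 2.00-fold higher with curdlan (centred log2 ratio 1.00, interval 0.92 to 1.09). The lists show a further peak upstream of Vav1 in NT, from 5.10 to 1.52 kb before the TSS with 1029 tags (61.8 RPM), and in curdlan with FK506, from 5.10 to 1.34 kb with 1238 tags (63.6 RPM). The curdlan peak began 5.08 kb upstream and covered both. The bases between the neighbouring peaks numbered 214 in NT and 92 in curdlan with FK506. With overlapping peaks of the 3 lists joined, an alternative chosen after these values were seen, Vav1 held 155.8, 171.8 and 175.6 RPM and its centred log2 ratio of curdlan over NT was 0.28 (0.20 to 0.35), so it was no longer called. Joined in this way, 1 of 8 genes (Malt1) was past 1.5-fold, beside 4.91% of all genes in either direction. An unequal number of peaks in the joined regions occurred at 10.6% of genes in this comparison.

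Bcl10, the partner of Malt1, had 61.3 RPM in NT (57.6 to 65.2), 71.8 with curdlan (68.2 to 75.5) and 64.2 with curdlan and FK506 (60.7 to 67.9). The curdlan value was the highest and its interval did not overlap the others. The centred log2 ratio of curdlan over NT was 0.36 (0.24 to 0.48), above 91.3% of genes but under the 1.5-fold limit. Its peak measured 3.74, 4.27 and 3.84 kb. Card9, the third gene of the complex, had 103.6, 79.3 and 85.1 RPM, with a centred log2 ratio of −0.25 (−0.35 to −0.15). By MACS fold enrichment of the peak with the most tags, the ratio was −0.65, past the 1.5-fold limit. The RPM sums hold 2 peaks. The one at the most upstream Card9 TSS had 70.4, 47.6 and 53.4 RPM and a centred log2 ratio of −0.43 (−0.55 to −0.31). The other, at the end of the gene, covered the start sites of Dnlz and Gm13562, and had 33.2, 31.7 and 31.6 RPM. After curdlan with or without FK506 it also covered an internal Card9 TSS. Its fold enrichment was 41.1 in NT and 147.3 with curdlan, beside a median ratio of 1.66 over all genes. The 3 genes of the complex therefore had unequal ratios, at 0.75, 0.36 and −0.25.

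Clec7a, the receptor gene, had 77.7 RPM in NT (73.5 to 82.1), 60.0 with curdlan (56.7 to 63.4) and 55.1 with curdlan and FK506 (51.8 to 58.5). The NT value was the highest, with no overlap of its interval with the others. The centred log2 ratio of curdlan over NT was −0.24 (−0.35 to −0.13), with 14.4% of genes below it, and that of curdlan with FK506 over NT was −0.32 (−0.43 to −0.20), both short of 1.5-fold. Its peak measured 3.26, 2.89 and 3.01 kb and differed at the upstream edge, 0.837 kb before the TSS in NT and 0.526 and 0.524 kb in the other conditions. Per kb of peak the centred log2 ratio of curdlan over NT was −0.02.

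Syk, the kinase that binds the receptor, had 2 peaks. The one at the most upstream TSS had 84.6, 66.6 and 82.0 RPM in NT, curdlan and curdlan with FK506, and lengths of 3.75, 3.78 and 3.98 kb. The second, over an internal TSS and with its summit 13.9 kb downstream of the first TSS in NT, had 36.6, 36.6 and 53.6 and lengths of 2.67, 3.09 and 4.71 kb. Summed, Syk had 121.2, 103.2 and 135.6 RPM, with a centred log2 ratio of curdlan over NT of −0.10 (−0.19 to −0.01). The curdlan value was the lowest. By MACS fold enrichment of the peak at the most upstream TSS, which held the most tags, the direction turned, with a centred ratio of 0.62. The second peak had a fold enrichment of 28.0 in NT and 37.6 with curdlan, beside a median ratio of 1.66 over all genes.

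Plcg2 and Prkcd, the phospholipase and the kinase upstream of Card9, had the ratios of curdlan over NT closest to that of the median gene. Plcg2 had 50.2, 46.8 and 44.3 RPM, with a centred log2 ratio of curdlan over NT of 0.03 (−0.10 to 0.17) and lengths of 3.54, 3.38 and 3.42 kb. Prkcd had 110.8, 99.2 and 99.5 RPM, with a ratio of −0.03 (−0.12 to 0.06) and lengths of 4.54, 4.87 and 4.64 kb. Both counting intervals of the ratio included 0. By MACS fold enrichment, however, Prkcd stood at 0.86, past the 1.5-fold limit.

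**Figure D4:**
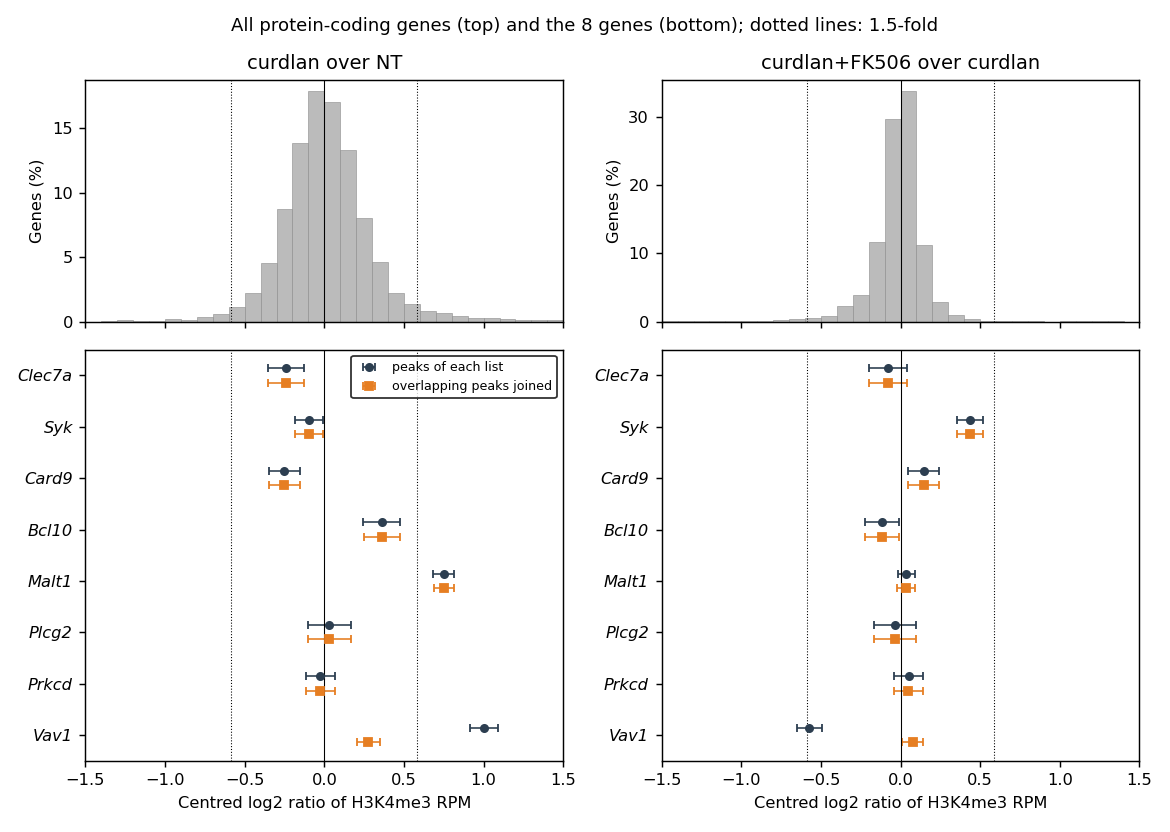
Centred log2 ratios of H3K4me3 RPM for curdlan over NT (left) and curdlan with FK506 over curdlan (right), as the distribution over all protein-coding genes (top, in percent of genes, values past 1.5 not drawn) and for the 8 genes with 95% counting intervals (bottom), from the peaks of each list (circles) and with overlapping peaks joined (squares). Malt1 stays at 0.75 on the left in both, while Vav1 moves from 1.00 to 0.28 on the left and from −0.57 to 0.08 on the right.

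Length was the second measure. In curdlan over NT 1 of 8 genes (Vav1, 2.15-fold) was past 1.5-fold, beside 4.78% of all genes, and the other 7 had length ratios of 0.886 to 1.17. With the peaks joined, 0 of 8 were past it. In curdlan with FK506 over curdlan Vav1 was again the gene past 1.5-fold, shorter at 0.636, beside 3.37% of all genes, and with joined peaks this call too was lost. Syk had the largest length ratio here (1.27), from its second peak.

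The comparison of curdlan with FK506 against curdlan alone asks whether blocking calcineurin, and with it NFAT, changed the mark. It shares the curdlan library with the comparison above, so the values are given side by side and not set against each other. Over 11277 genes the median log2 ratio was −0.04. Past 1.5-fold, 0 of 8 genes were higher, beside 0.568% of all genes, and 0 of 8 were lower, beside 1.35%. Vav1 came closest, at −0.57 (−0.65 to −0.50), and without centring its ratio of 0.652 passed the limit. With joined peaks it stood at 0.08 (0.01 to 0.14) and still 0 of 8 genes were called, beside 1.29% of all genes in either direction. Syk was next, at 0.44 (0.36 to 0.52), above 99.1% of genes. Per kb of peak it stood at 0.07, and by MACS fold enrichment of its peak with the most tags at 0.16. Its peak at the main TSS had a centred log2 ratio of RPM of 0.34 (0.24 to 0.45) and its second peak one of 0.59 (0.46 to 0.73). The fold enrichment of the second peak was 37.6 with curdlan and 56.6 with FK506 added, beside a median ratio of 0.829 over all genes. Card9 stood at 0.15 (0.05 to 0.24) and Bcl10 at −0.12 (−0.23 to −0.01). The intervals of Clec7a (−0.08), Malt1 (0.03), Plcg2 (−0.04) and Prkcd (0.05) included 0. The median over the 8 genes was 0.00.

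The other genes of the pathway were described from a list of 34 adaptors, kinases, phospholipases, calcium channels and phosphatases. Of these, 30 had an NFATc2 summit within 100 kb and 16 within 10 kb, beside 55.4% and 16.3% of all protein-coding genes, and 32 had an H3K4me3 peak in each list, beside 51.1% to 51.5%. In curdlan over NT, 2 of the 32 were past 1.5-fold higher and 0 lower, beside 3.71% and 1.8% of all genes, with a median centred log2 ratio of −0.04. Among those higher was Traf6, a ubiquitin ligase on the way to NF-κB, with 44.7 RPM in NT and 68.9 with curdlan (0.76). Cbl, a ubiquitin ligase that targets Syk, had 130.6 and 83.2 (−0.52), and Pik3cd, a phosphoinositide 3-kinase subunit, had 140.6 and 89.7 (−0.51). In curdlan with FK506 over curdlan 0 of the 32 were higher and 1 was lower, beside 0.568% and 1.35% of all genes, with a median of 0.01. That gene was Plcg1, the paralogue of Plcg2, with 8.31 RPM with curdlan and 5.19 with FK506 added (−0.64), at a low level. Src stood at 0.52 (0.25 to 0.80), also at a low level, with 9.30 RPM with curdlan and 12.9 with FK506 added. Ptpn6, a tyrosine phosphatase, and Traf6 stood at −0.25 each. Traf6, Vav3, Btk and Stim2 each had 2 NFATc2 summits within 10 kb, and no other gene of the list had more than 1. Vav3, a relative of Vav1, had 13 within 100 kb.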

How the data were processed

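NFATc2-V5 and H3K4me3 were measured by ChIP-seq in D1 cells. Per the labels, the authors mapped single-end reads to mm9 with bowtie 1. The file headers name MACS 1.4.2, whereas the study's methods name MACS 1.4.1, with each ChIP library called against its own input. The p threshold was 1e-05, and the band width was 300 bp in the NFATc2 run and 1000 bp in the H3K4me3 runs. Duplicate tags were removed before calling, and replicates were not pooled, since each condition has 1. The deposited counts are unnormalized tags per peak. The deposited fold enrichment is a ratio over the local input background. The deposited score is −10 log10 of the MACS p-value, and the deposited FDR is in percent.

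From these, summits were set at distances from every annotated TSS of a gene, and tags were divided by the header total of ChIP tags, which range from 14377535 to 21289349, and summed over the H3K4me3 peaks that overlap a gene by at least 1 bp or lie within 1 kb of a TSS. Log2 ratios were centred on the median over all protein-coding genes with a peak in both lists and called past 1.5-fold. A difference in where a list splits a peak changes such sums. Fold enrichment was not summed but read from the peak of a gene with the most tags. The 95% intervals are exact Poisson for tags, exact conditional binomial for ratios and exact binomial for shares. They cover counting error only, and with 1 library a condition no p-value was computed between conditions. The functions passed 7 of 7 tests, made on tags simulated for the 15799 NT peaks and on overlaps and joined regions of deposited peaks. Peak boundaries were fixed in the simulation, so it did not test how a list splits a peak.

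The genome was NCBIM37, the assembly of mm9: on 20 of 20 chromosomes the last peak ended within its length. Genes were those of the GENCODE M1 annotation (37252 genes, 22350 protein-coding), and Syk was found through a RefSeq synonym. The members and gene lists were chosen with earlier results of these data known. The rule for named genes was all 8 members and, of the 34 other pathway genes, the 4 with the largest absolute centred ratio in each comparison and the 4 with the most NFATc2 summits within 10 kb. Values of 1 gene that this rule names are not reported here. Alternatives covered thresholds, windows, peak choice, scaling and the measure of the mark. Joining overlapping peaks, and taking only peaks at the most upstream TSS, were added after seeing the data. The work used scipy 1.17.1, pandas 2.3.3, numpy 2.4.6 and matplotlib 3.10.9 under Python 3.11.15.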

Additional observations from a re-analysis of the deposited data

How the results depend on the processing

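With 1 library a condition, leaving out a replicate was not possible. No paired analysis was possible because each group has 1 sample. A window of 50 kb left 14 of the 22 NFATc2 summits. In curdlan over NT, 0 genes were past 1.5-fold higher by tags per kb of peak, 1 with overlapping peaks joined (chosen after seeing the data), and 2 were higher by MACS fold enrichment. These 2 were Syk (0.62) and Prkcd (0.86) in place of Malt1 and Vav1, and 1 gene (Card9, −0.65) was lower by it. Fold enrichment was read from the peak of each gene with the most tags, so the second peaks of Syk and Card9 did not enter it. By tags per kb Vav1 stood at −0.054. By fold enrichment Malt1 stood at −0.24 and Vav1 at −0.58. In curdlan with FK506 over curdlan, 1 gene was lower without centring, and at the lower fold limit 1 was higher and 1 lower. With joined peaks 0 genes were past 1.5-fold in length in either comparison. Of the 16 ratios of single genes, 2 moved by less than their counting interval by fold enrichment, 9 by tags per kb and 14 with joined peaks. The cause was not tested. At the depth of 1 library each, the intervals cover counting error only.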

Other observations

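Other myeloid C-type lectin genes and Toll-like receptor genes were described by counts and medians, beside Clec7a. Of 12 other myeloid C-type lectin genes, 12 had an NFATc2 summit within 100 kb and 6 within 10 kb, beside 55.4% and 16.3% of all protein-coding genes. Several of these genes are close neighbours on chromosome 6, so the same summit can count for more than a single gene. Clec1b and Clec9a lie at summits already listed for Clec7a. These counts are therefore not of separate sites. An H3K4me3 peak was present at 5 in each list, beside 51.5% of all genes in NT. In curdlan over NT their median centred log2 ratio was 0.24, with 1 gene past 1.5-fold higher and 1 lower, beside 3.71% and 1.8% of all genes. These were Clec4e (24.2 RPM in NT and 33.7 with curdlan, 0.61), which encodes Mincle, and Mrc1 (13.9 and 8.27, −0.61), which encodes the mannose receptor, both named after their values were seen. In curdlan with FK506 over curdlan the median was −0.25 and 0 genes were past 1.5-fold, beside 0.568% of all genes higher and 1.35% lower. Clec7a stood at −0.24 and −0.08 in the same comparisons.

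Of 12 Toll-like receptor genes, 7 had a summit within 100 kb and 4 within 10 kb, and 8 had an H3K4me3 peak, beside the same shares of all genes (55.4%, 16.3% and 51.5%). Their median was −0.29 in curdlan over NT, with 2 genes past 1.5-fold lower, Tlr11 (49.9 and 28.4 RPM, −0.68) and Tlr13 (50.7 and 27.0, −0.77), named after their values were seen, and 0 higher, beside 1.8% and 3.71% of all genes. In curdlan with FK506 over curdlan the median was −0.01 and 0 were past the limit, beside 0.568% of all genes higher and 1.35% lower.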
